A study of Mus musculus with 25 samples.

Results

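Skeletal muscle and myogenic genes were followed in leukocytes sorted from injured mouse muscle and in cultured macrophages. The set was taken by symbol and holds 38 genes of the 38087 in each deposited table: genes of the contractile apparatus, muscle metabolism, membrane and calcium handling, and 5 myogenic transcription factors. All 38 were found in both tables. The membership was set by gene name and not by a value, although earlier results of these data were known when the genes were chosen.

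The samples used came from adult male C57BL/6J mice aged 2 to 4 months, and the labels name no genetic change in any group. The tibialis anterior, a leg muscle, was injured by cardiotoxin, a component of snake venom that destroys its fibres and lets them regrow. CD45+ cells were enriched with magnets and separated in a flow sorter as Ly6Chigh F4/80low macrophages and Ly6Clow F4/80high macrophages at day 2 (3 samples each) and day 4 (2 samples each), and Ly6Ghigh neutrophils at day 1 (3 samples). Bone marrow-derived macrophages (BMDM), grown in culture with macrophage colony-stimulating factor and so without contact with muscle, were left untreated (3 samples) or given the lipid mediator resolvin D2 (RvD2) at 10 nM for 4 h (3 samples). Another 6 samples in 2 groups were not analysed here. No uninjured muscle and no sorted muscle cell is among the groups used.

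A muscle fibre is built of repeated sarcomeres in which myosin thick filaments pull on actin thin filaments, under the control of calcium, troponin and tropomyosin. After injury, Pax7-positive satellite cells become myoblasts that express Myf5 and Myod1, then Myog as they differentiate and fuse. The new fibres first use embryonic and perinatal isoforms such as Myh3 and Myh8 and later replace them with adult ones such as Myh1, Myh2 and Myh4. Macrophages take up dead fibres early after injury and stay beside the growing myofibres later, but are not known to build sarcomeres.

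Levels are log2 normalised read counts throughout, and a gene under 1 normalised count is listed at 0. For muscle, the authors deposited 1 mean of log2 values per group, so the differences between these groups have no replicate error and no test. Each macrophage group's values added up to 11.9 to 12.8 M (mega) normalised counts, and those of neutrophils to 26.0 M. A sequencing depth cannot be read from such means. Macrophage markers were high in all 4 macrophage groups, with Csf1r between 13.86 and 15.16, Cd68 between 13.57 and 14.74 and Lyz2 between 16.84 and 17.73. The neutrophil group was highest in S100a8 (16.63), S100a9 (17.12) and Cxcr2 (13.97), and was the only group with Ly6g above 0 (7.20). It also carried the macrophage markers Csf1r (13.42), Cd68 (13.31), Lyz2 (14.13) and Emr1 (11.07), which encodes F4/80, although its gate was F4/80-negative. Mertk was at 3.69 in neutrophils and between 9.76 and 11.90 in the macrophage groups.

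Promoter sequence is given for 4 members from 3 roles that were low at day 2 and higher at day 4, to show which muscle regulatory motifs lie close to their start sites. These are Myog (myogenic factor), Myh3 (embryonic myosin), Myh4 (adult fast myosin) and Des (intermediate filament). Each run is the 250 bases upstream of the RefSeq start, 5′ to 3′ on the gene's own strand, in build GRCm38.p6. All 4 genes lie on the forward strand. Capitals mark matches to an E-box (CANNTG, the core bound by myogenic factors), a TATA box (TATAAA), a CArG box (bound by serum response factor) or a MEF2 site. The MEF2 pattern was YTAWWWWTAR, where Y is C or T, W is A or T and R is A or G. Sites that differ from it by a base are unmarked, so a run without a marked MEF2 site may still hold a looser one.
Myog, chr1:134289754-134290003: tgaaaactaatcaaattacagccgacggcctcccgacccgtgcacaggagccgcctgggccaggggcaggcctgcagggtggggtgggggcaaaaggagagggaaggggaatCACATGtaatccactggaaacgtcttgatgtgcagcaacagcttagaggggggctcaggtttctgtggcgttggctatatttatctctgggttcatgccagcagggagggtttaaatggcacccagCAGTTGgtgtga
Myh3, chr11:67078050-67078299: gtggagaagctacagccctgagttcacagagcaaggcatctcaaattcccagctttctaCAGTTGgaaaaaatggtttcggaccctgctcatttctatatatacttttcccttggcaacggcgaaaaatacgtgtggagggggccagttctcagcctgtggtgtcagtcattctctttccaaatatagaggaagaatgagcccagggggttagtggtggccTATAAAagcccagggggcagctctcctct
Myh4, chr11:67237562-67237811: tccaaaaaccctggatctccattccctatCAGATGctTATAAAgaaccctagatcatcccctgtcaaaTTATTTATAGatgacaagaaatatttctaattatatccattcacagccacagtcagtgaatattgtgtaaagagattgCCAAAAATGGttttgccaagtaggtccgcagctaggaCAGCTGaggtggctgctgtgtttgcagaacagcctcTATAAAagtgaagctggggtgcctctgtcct
Des, chr1:75360042-75360291: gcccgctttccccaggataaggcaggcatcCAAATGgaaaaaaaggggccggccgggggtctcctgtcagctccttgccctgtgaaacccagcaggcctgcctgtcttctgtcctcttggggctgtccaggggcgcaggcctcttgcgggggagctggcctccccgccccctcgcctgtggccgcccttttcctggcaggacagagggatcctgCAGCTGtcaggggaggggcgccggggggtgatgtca
Within these stretches Myog held 2 E-boxes and Myh3 held 1 E-box and 1 TATA box 29 bases before its start. Myh4 held 2 E-boxes, 3 TATA boxes, of which 1 overlapped a MEF2 site, and 1 CArG box. Des held 2 E-boxes, of which 1 was CAGCTG.

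Windows of 300 bases, from 250 before to 50 after a start, were found for 32 of the 38 genes (37 windows). An E-box CANNTG lay in those of 26 genes (30 of 37 windows), against 72.3% of the 32851 RefSeq windows of the same length. The subtype CAGCTG, which is a preferred site of Myod1 and Myog and is itself a CANNTG match, lay in those of 16 genes (18 of 37 windows) against 16.3% of all windows. TATAAA was found for 9 genes against 13.6% of all windows, and these were Acta1, Myf5, Myl1, Tnnt1 and all 5 myosin heavy chains. The matches of Myh2 and Myf5 lay after the start, by 10 and 20 bases. MEF2 sites lay near Myh1, Myh4, Myh8, Pvalb and Ttn (3.19% of all windows), and CArG boxes near Acta1 and Myh4 (1.63%). Both strands were searched. A match describes the sequence and does not show that a factor binds there.

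At day 2 most of the muscle genes were at or near 0 in both macrophage subsets. Of the 38 genes, 22 were above 0 in Ly6Chigh and 23 in Ly6Clow cells, and 13 were at 0 in both, among them Myh8, Myh1, Myh2, Tnnt2, Neb, Actn2, Myog, Myf5 and Pax7. Only 5 genes reached 10 normalised counts in each subset. Together the members made up 42.4 of every 1000000 normalised counts (42.4 ppm) in Ly6Chigh and 46.1 ppm in Ly6Clow cells.

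**Figure D1:**
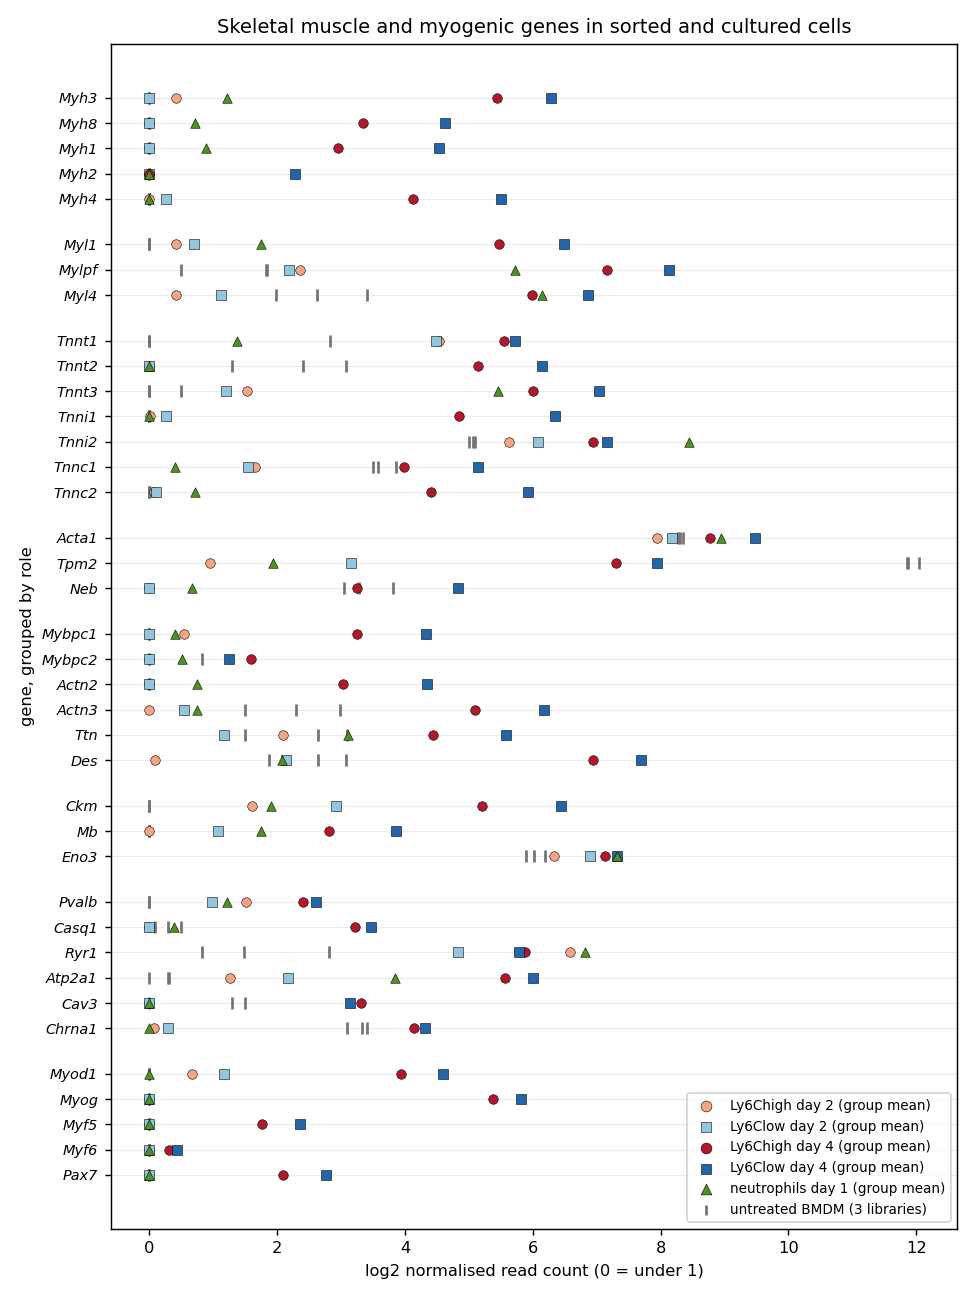
Level of each gene (log2 normalised read count, x axis) by role (y axis) in the 5 sorted groups, as the authors' group means, and in the 3 untreated BMDM libraries as single values. The day 4 points lie to the right of the day 2 points for 36 of the 38 genes, the exceptions being Myh2 and Ryr1.

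The genes that were present at day 2 were a small group. Acta1, the skeletal muscle actin, stood at 7.94 in Ly6Chigh and 8.18 in Ly6Clow cells. Eno3, the muscle enolase of glycolysis, was at 6.34 and 6.90, and Tnni2, the fast inhibitory troponin, at 5.63 and 6.08. These 3 genes were also found in every library of cultured BMDM. Tnnt1, the slow tropomyosin-binding troponin, was at 4.53 and 4.48, whereas the untreated BMDM libraries listed it at 0, 2.82 and 0.

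Ryr1, the calcium release channel of the sarcoplasmic reticulum, was at 6.59 in Ly6Chigh and 4.83 in Ly6Clow cells at day 2. It was the 1 member called different between the subsets at this time. A gene is called here when its log2 ratio of (normalised count + 10) is at least 2-fold and the higher group has 50 or more normalised counts. On that scale Ryr1 was lower in Ly6Clow cells by a log2 ratio of -1.47. No member (0 of 4 at 50 or more counts) was called higher, and the calls over all 11275 genes at that level were 5.90% higher and 5.46% lower.

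Muscle RNA was more abundant at day 4 in both subsets. In Ly6Chigh cells the summed share was 157 ppm and in Ly6Clow cells 244 ppm, and 37 and 38 genes were above 0. Of the 38 genes, 36 had both day 4 levels above both day 2 levels, against 24.6% of the 12047 genes with 50 or more counts in any macrophage group. The members were counted at any level, and 19 of them reached 50 counts in Ly6Clow cells at day 4, so the sets differ in level. Of the 13 genes at 0 in both subsets at day 2, 12 were above 0 in both at day 4, and Myh2 appeared in Ly6Clow cells alone. In these sorted pools, fewer cells of a type and less RNA per cell cannot be told apart.

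In Ly6Chigh cells 6 members were called higher at day 4 than at day 2, and 9.67% of the 11618 genes at 50 or more counts were called in that direction. These were Tpm2 (log2 ratio 3.82), Des (3.59), Mylpf (3.34), Myl4 (2.70), Tnnt3 (2.53) and Tnni2 (1.15). None (0) was called lower, against 3.74% of all genes. Only 9 members reached 50 counts in either group, and 3 of them did so at day 2. Few could therefore be called lower. The others passed the minimum only through day 4, so these counts do not test direction. With a minimum of 10 counts 20 members were called higher, against 12.5% of 14921 genes.

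In Ly6Clow cells 15 members were called higher at day 4, against 8.08% of 11560 genes. None (0) was called lower, against 3.24% of all genes. The ratios ran from 1.27 for Acta1 to 4.32 for Mylpf, and the genes came from every role. Those beyond the 2 named were Myh3, Myl1, Myl4, Tnnt2, Tnnt3, Tnni1, Tnnc2, Tpm2, Actn3, Des, Ckm, Atp2a1 and Myog. In this comparison 19 members reached 50 counts, 3 of them at day 2, so here too few could be called lower. The others passed the minimum only through day 4, so the counts do not test direction. A minimum of 10 counts raised the calls to 27, against 9.07% of 14511 genes. The median log2 ratio over all 38 genes was 1.07 in Ly6Chigh and 1.77 in Ly6Clow cells, beside -0.01 and -0.01 over all genes with 50 counts.

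The 5 myosin heavy chains of the set lie in 1 cluster on chromosome 11 (GRCm38, from 67078300 for Myh3 to 67308634 for Myh8). They encode the motor proteins of the thick filament. Myh3, the embryonic chain, was at 0.42 in Ly6Chigh and 0 in Ly6Clow cells at day 2, and at 5.45 and 6.29 at day 4. Myh4, the adult type 2B chain, was at 0 and 0.25 at day 2 and at 4.13 and 5.50 at day 4. Both were therefore near absent in either subset at day 2 and clearly present in either subset at day 4.

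The perinatal chain Myh8 was at 0 in both subsets at day 2 and at 3.34 and 4.63 at day 4. The adult type 2X chain Myh1 was also at 0 in both at day 2 and at 2.95 and 4.54 at day 4. Myh2, the adult type 2A chain, was listed at 0 in every sorted group but Ly6Clow cells at day 4, where it stood at 2.28. The slow chain Myh7 and the slow light chain Myl3, neither of them members, were at 0 in every group. The sequences of these chains are close copies of each other, so reads may have been split among them and single values are less certain than the family's.

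Of the light chains, Mylpf, the fast regulatory chain, had the highest level per kilobase of exon at day 4. Its levels were 2.36 and 2.19 at day 2 and 7.16 and 8.13 at day 4, in Ly6Chigh and Ly6Clow cells. Myl1, the fast essential chain, went from 0.41 and 0.70 to 5.47 and 6.49. Myl4, the embryonic and atrial essential chain, went from 0.41 and 1.13 to 5.99 and 6.86. All 3 stood higher in Ly6Clow cells at day 4.

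Troponin is the calcium switch of the thin filament, with a tropomyosin-binding (T), an inhibitory (I) and a calcium-binding (C) subunit. Among the T subunits, Tnnt2, the cardiac form that embryonic skeletal muscle also uses, went from 0 in both subsets to 5.14 in Ly6Chigh and 6.14 in Ly6Clow cells. Tnnt3, the fast form, went from 1.53 and 1.20 to 6.01 and 7.04. Tnnt1, the slow form, moved least, from 4.53 and 4.48 to 5.55 and 5.71.

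The inhibitory subunits also differed from each other, but here the slow form rose more than the fast form. Tnni1, the slow form that embryonic muscle also uses, went from 0.01 and 0.25 at day 2 to 4.84 and 6.34 at day 4. Tnni2, the fast form, went only from 5.63 and 6.08 to 6.94 and 7.16. Of the C subunits, Tnnc1 (slow and cardiac) went from 1.65 and 1.55 to 3.99 and 5.15, and Tnnc2 (fast) from 0.08 and 0.11 to 4.41 and 5.93. Tnni1, Tnnc2 and Tnnt2 thus appeared almost from nothing, whereas Tnni2 and Tnnt1 started from a level already there at day 2.

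Among the other thin filament genes, Acta1 had the highest level per kilobase of all members in every sorted group, with a log2 level of 8.77 in Ly6Chigh and 9.48 in Ly6Clow cells at day 4. Tpm2, the beta tropomyosin, went from 0.94 and 3.15 at day 2 to 7.31 and 7.94. Neb, the giant ruler protein of the thin filament, went from 0 in both to 3.25 and 4.83.

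The structural proteins of the thick filament, Z disc and cell scaffold followed. Des, the muscle intermediate filament, went from 0.08 and 2.14 to 6.94 and 7.69. Actn3, the fast alpha-actinin of the Z disc, went from 0 and 0.55 to 5.10 and 6.17, and its relative Actn2 from 0 in both to 3.03 and 4.35. Ttn, which encodes the elastic giant titin, went from 2.10 and 1.16 to 4.44 and 5.58. Of the myosin-binding proteins, slow Mybpc1 reached 3.24 and 4.32, while fast Mybpc2 stayed low at 1.59 and 1.24.

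Of the metabolic genes, Ckm, the muscle creatine kinase that buffers ATP, went from 1.61 and 2.92 to 5.21 and 6.44. The oxygen store myoglobin (Mb) was at 0 and 1.07 at day 2 and 2.81 and 3.85 at day 4. Eno3 moved little, to 7.13 and 7.32.

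Among the membrane and calcium genes, Atp2a1, the fast calcium pump, went from 1.25 and 2.17 to 5.56 and 6.01. Chrna1, the alpha subunit of the acetylcholine receptor, went from 0.08 and 0.29 to 4.14 and 4.31. Casq1 (calsequestrin, the calcium buffer of the reticulum) and Cav3 (muscle caveolin) were at 0 in both subsets at day 2, and at day 4 Casq1 was at 3.21 and 3.47 and Cav3 at 3.30 and 3.14. Pvalb, the calcium buffer of fast fibres, was at 2.40 and 2.60 at day 4. Ryr1 alone had day 4 levels (5.88 and 5.79) between its day 2 levels.

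Of the myogenic factors, Myog had the highest level per kilobase at day 4. It was listed at 0 in both subsets at day 2 and in neutrophils, and stood at 5.38 in Ly6Chigh and 5.81 in Ly6Clow cells at day 4. Its gene lies at 134289989 to 134292548 on chromosome 1 in the annotation used for lengths. The end of the printed Myog run, with its second E-box, therefore lies inside the gene by that annotation. Myod1 was at 0.67 and 1.17 at day 2 and at 3.94 and 4.60 at day 4. The differentiation factor and the myoblast factor were thus both present at day 4.

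The stem cell factor Pax7 was at 0 in both subsets at day 2 and at 2.09 and 2.77 at day 4. Myf5 likewise went from 0 in both to 1.77 and 2.36. Myf6, a factor of mature fibres, was at 0.31 and 0.43 at day 4. Those 2 values are among the commonest low values of their columns, held by 339 genes in Ly6Chigh and 271 in Ly6Clow cells, and may stand for a read or so in 1 library of the pair. Together the 5 factors made up 0.127 and 0.178 ppm at day 2 and 5.54 and 7.34 ppm at day 4.

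Other genes of developing muscle that are not members were present too. Of the 8 in the table, the 3 highest were Actc1, Myl6b and Tmem8c. Actc1, the cardiac actin that regenerating muscle uses, was at 0 and 0.45 at day 2 and at 6.23 and 7.28 at day 4, and was called higher at day 4 in each subset (the 1 call of the list in either). Tmem8c, the fusion protein myomaker, was at 0 in both at day 2 and at 3.42 and 4.87 at day 4. Myl6b, a light chain shared with non-muscle cells, was at 3.40 and 4.05 at day 2 and 4.69 and 4.79 at day 4. Untreated BMDM, normalised separately, had means of 3.38 for Actc1, 0 for Tmem8c and 3.93 for Myl6b. There the 8 genes summed to 523 to 626 normalised counts, with Ncam1 at a mean of 9.05. At day 4 they summed to 145 in Ly6Chigh and 259 in Ly6Clow cells.

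Of 10 other genes of myogenic regulation, only 1, Mef2c, reached 50 counts, and it was called higher at day 4 in Ly6Clow and not in Ly6Chigh cells. Mef2c and Itga7 were among the highest. Mef2c, a factor that myeloid cells also express, was at 9.67 and 9.10 at day 2 and 10.29 and 10.22 at day 4. Itga7, the laminin receptor of muscle, went from 0.33 and 1.84 to 3.95 and 5.17. Both were also carried by neutrophils (7.30 and 4.37) and by untreated BMDM (means 9.14 and 5.87), so neither is particular to muscle here. Of 40 other adult and slow fibre genes, 2 reached 50 counts in Ly6Chigh cells, both called higher at day 4, and 6 in Ly6Clow cells, of which 3 were called higher and 0 lower. Between the subsets at day 4, Ly6Clow cells had the higher value for 6 of the 8 developing muscle genes and 32 of the 40 adult and slow fibre genes, and for 4 of the 10 regulators. Of these lists 1, 5 and 1 genes reached 50 counts, and 0, 1 and 0 were called.

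At day 4 the muscle genes were mostly higher in Ly6Clow than in Ly6Chigh cells, most of them by less than 2-fold on the scale with 10 added. A higher value in Ly6Clow cells was found for 35 of 38 genes, against 51.1% of genes at 50 or more counts and 47.7% of genes above 0 in either. The exceptions were Mybpc2, Cav3 and Ryr1. Past the 2-fold rule 3 of 19 members were called higher, Tnni1 (log2 ratio 1.24), Tnnc2 (1.18) and Ckm (1.04), against 2.98% of 11764 genes. None (0) was called lower, against 4.22% of genes. The count depends on the added constant, with 6 members called when 1 was added in place of 10 and 0 when 32 was added. After rescaling to equal sums the ratio of Ckm was 0.95, under 2-fold.

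**Figure D2:**
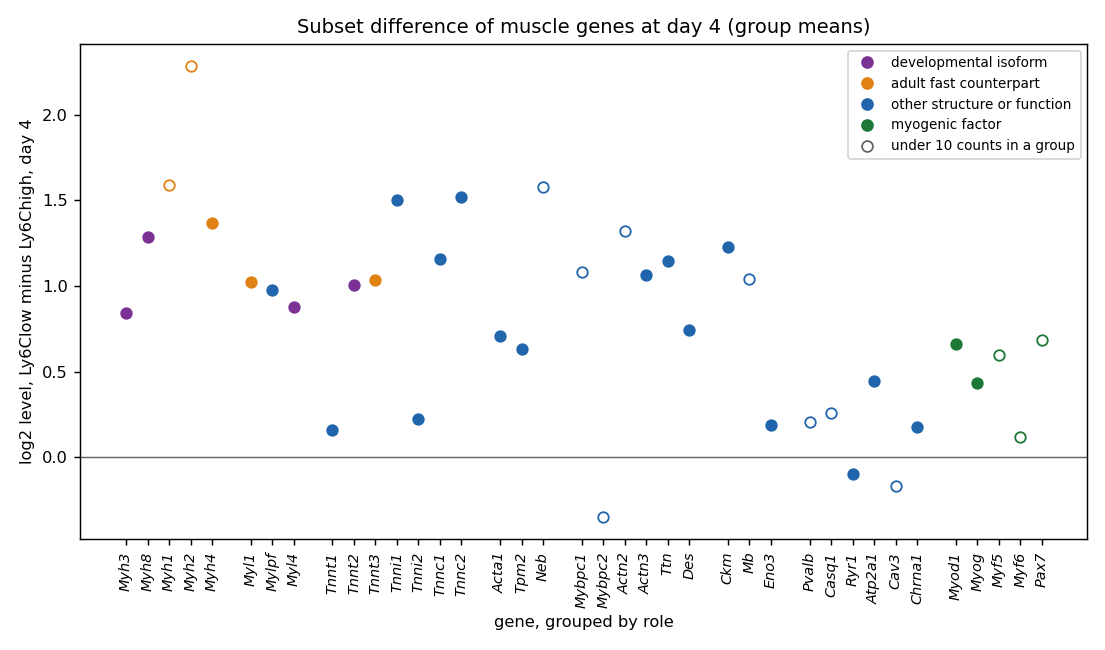
Level in Ly6Clow minus level in Ly6Chigh macrophages at day 4 (log2, y axis) for each gene, grouped by role (x axis). Filled points have 10 or more normalised counts in both groups. Of the 38 points 35 lie above 0, and those for the membrane, calcium and myogenic genes lie lower than most contractile genes.

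The size of the subset difference varied with role. The median difference of log2 levels was 1.37 for the myosin heavy chains, 0.98 for the light chains, 1.03 for the troponins and 1.07 for the thick filament, Z disc and scaffold genes. It was 1.04 for the metabolic genes and 0.71 for the other thin filament genes. It was 0.60 for the myogenic factors and 0.19 for the membrane and calcium genes. These role medians include genes under 10 counts. Over the 25 genes at 10 or more counts in both groups the median was 0.88, with a range from -0.09 for Ryr1 to 1.52 for Tnnc2. Among those, the metabolic median was 0.71 (2 genes), the heavy chains 1.29 (3 genes) and the other thin filament genes 0.67 (2 genes). The myogenic factors were at 0.55 (2 genes) and the membrane and calcium genes at 0.18 (3 genes). No test of these differences among roles was possible with 1 value per group.

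Fibroblast and endothelial markers went the other way at day 4. All 11 fibroblast markers were called lower in Ly6Clow cells, with a median log2 ratio of -3.40, and all 4 of the 7 endothelial markers that reached 50 counts were called lower. The summed fibroblast markers were 26209 normalised counts in Ly6Chigh and 1851 in Ly6Clow cells, whereas the summed members were 1866 and 3115. At day 2 the fibroblast markers summed to 282 and 89.0 counts. All 11 were called higher at day 4 than at day 2 in Ly6Chigh cells and 5 in Ly6Clow cells. Of the other lists, 6 of the 10 smooth muscle and pericyte genes reached 50 counts, with 1 called higher in Ly6Clow cells at day 4 and 2 lower. Of 6 Schwann cell genes only 1, Mbp, reached 50 counts, and it was not called. Of 15 non-muscle counterparts of the members 1 was called higher and 1 lower, and of 6 macrophage markers 1 was called higher and 0 lower. The amount of RNA from other cells in each sort was not measured, and its part in the member values was not tested.

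**Figure D3:**
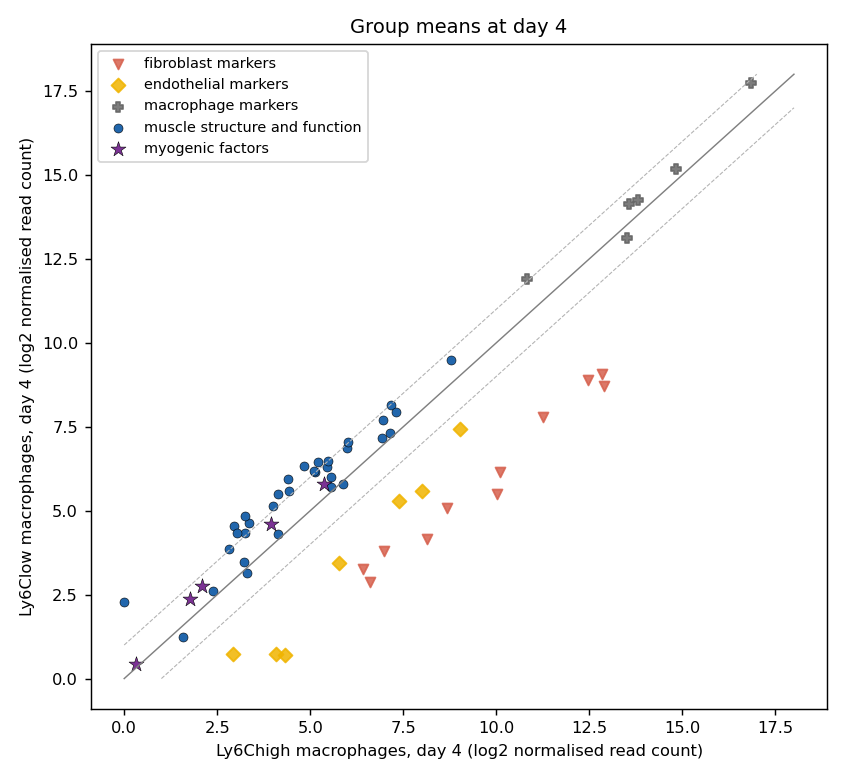
Group means at day 4 in Ly6Chigh (x axis) and Ly6Clow macrophages (y axis), as log2 normalised read counts, for the muscle structure genes, the myogenic factors and the markers of 3 other cell types. The solid line marks equal levels and the dashed lines a 2-fold difference; the muscle genes lie mostly above the solid line and the 11 fibroblast markers below the dashed band.

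Of 5 genes listed for heart muscle, Myl7 and Myh6, an atrial light chain and the cardiac heavy chain, were at 0 in every sorted group. Mybpc3 was above 0 in all of them, at 4.74 and 4.28 at day 2, 4.57 and 4.98 at day 4 and 7.20 in neutrophils. Nppa was at most 0.10 in macrophages and at 1.66 in neutrophils. Tnni3, the cardiac inhibitory troponin, was picked out after its values were seen, at 1.81 and 1.52 at day 2 and 4.69 and 5.01 at day 4. Across the 38 members the levels of the day 4 subsets had a Pearson correlation of 0.958, and those of the day 2 subsets 0.944. These are descriptions across genes, which are not independent replicates, and each gene has the same length and base composition in both groups.

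Developmental and adult isoforms were set side by side per kilobase of exon, since longer genes collect more reads. Values are log2 differences of normalised counts per kilobase within a group at day 4. Embryonic Myh3 exceeded adult Myh4 by 1.30 in Ly6Chigh and 0.78 in Ly6Clow cells. It exceeded adult Myh1 by 2.57 and 1.82, and in Ly6Clow cells it exceeded Myh2 by 4.25. The sum of Myh3 and Myh8 exceeded the sum of the 3 adult chains by 0.97 and 0.34. In both subsets the embryonic chain was the highest of the 5, and its lead over the adult chains was 0.62 smaller for the sums in Ly6Clow cells, a difference with no replicate error.

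The other pairs gave no single order. With the length of all annotated exons joined, Myl4 was below Myl1 by -0.64 in Ly6Chigh and -0.79 in Ly6Clow cells. With the length of the principal transcript it was above by 0.29 and 0.14, so the order of these 2 genes depends on the length used. The same holds for Myh8 against Myh1, at -0.49 and -0.80 with all exons and 0.38 and 0.08 with the principal transcript. Myh8 was below Myh4 with either length (-1.76 and -1.84, or -0.82 and -0.90).

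Embryonic Tnnt2 was below fast Tnnt3 by -3.16 and -3.19 with all exons and by -1.12 and -1.15 with the principal transcript. Slow Tnni1 was below fast Tnni2 by -3.36 in Ly6Chigh and -2.08 in Ly6Clow cells, and this difference, in which length cancels, was 1.28 closer to 0 in Ly6Clow cells. With the principal transcript Tnni1 was below Tnni2 by -2.68 and -1.40. Slow Tnnt1 was below Tnnt3 by -0.93 and -1.80 with all exons and by -0.48 and -1.35 with the principal transcript. Slow Tnnc1 was below Tnnc2 by -0.81 and -1.16, or -0.47 and -0.83. Slow Mybpc1 was above Mybpc2 by 1.33 and 2.75, or 1.54 and 2.96. Fast forms therefore exceeded slow forms for the 3 troponin pairs and not for the myosin-binding pair. Tnni2 (5.63 and 6.08) and Tnnt1 (4.53 and 4.48) were already present at day 2, and Tnnc1 was at a mean of 3.65 in untreated BMDM. Mybpc2 was low, at 1.59 and 1.24 at day 4. The orders describe deposited levels, and the origin of the reads was not tested.

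The acetylcholine receptor changes its gamma subunit (Chrng) for epsilon (Chrne) as fibres mature. Chrng was at 0 in both subsets at day 2, and at 2.43 in Ly6Chigh and 3.08 in Ly6Clow cells at day 4. Chrne was at 0 in Ly6Chigh and 0.32 in Ly6Clow cells at day 2, and at 0.76 and 0 at day 4. In neutrophils Chrng was at 0.60 and Chrne at 3.52, its highest level among the sorted groups. Neither gene is a member.

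Neutrophils at day 1 carried some of these genes and lacked others. The members made up 51.7 ppm, and 27 of 38 were above 0. The neutrophil values added up to 26.0 M normalised counts, against 11.9 to 12.8 M in each macrophage group. The order of levels across cell types may therefore differ from that of shares. In deposited levels Tnni2 (8.44) and Ryr1 (6.82) were higher in neutrophils than in any macrophage group. Acta1 (8.95), Eno3 (7.32), Myl4 (6.15), Mylpf (5.73) and Tnnt3 (5.45) were also high. In contrast Myog, Myod1, Myf5, Myf6, Pax7, Tnnt2, Tnni1, Cav3 and Chrna1 were listed at 0.

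The rest of the set in neutrophils was lower. Atp2a1 was at 3.85 and Ttn at 3.11, Des at 2.07, Tpm2 at 1.94, Ckm at 1.91, Myl1 at 1.74, Tnnt1 at 1.37, Myh3 at 1.21, Actn3 at 0.74 and Tnnc2 at 0.71. Myh4 was at 0, Myh1 at 0.88, Myh8 at 0.72 and Tnnc1 at 0.41. Myl4 exceeded Myl1 by 3.25 per kilobase there, whereas with the same all-exon lengths it was below Myl1 at day 4. In deposited levels, not adjusted for the larger sum of the neutrophil group, neutrophils had Myl4 between its day 4 levels in macrophages. On the same scale Mylpf and Tnnt3 lay between their day 2 and day 4 levels, and all 5 myogenic factors were at 0.

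BMDM had not been in muscle, and they serve here as a muscle-free reference. Fibroblast markers summed to 46447 to 53867 normalised counts in the untreated libraries. BMDM therefore do not set a macrophage level for genes shared with fibroblasts. Of the 38 genes, 16 were at 0 in all 6 libraries, including Myh8, Myh1, Myh2, Myh4, Myl1, Tnnc2, Ckm, Mb and all 5 myogenic factors. Of these 16, 15 were above 0 in both subsets at day 4, and Myh2 in Ly6Clow cells alone. A further 13 genes were above 0 in every BMDM library, and 5 reached 10 counts in every untreated library (Tpm2, Acta1, Eno3, Tnni2 and Tnnc1). Estimated depth was 9.05 to 14.3 M gene reads per library, so a gene at 0 here was not detected at this depth.

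The summed share of the members was higher in untreated BMDM than in any sorted group, at 348 ± 27.2 ppm (SD, n = 3), and most of it came from 1 gene. Tpm2 stood at 12.04, 11.86 and 11.86 in the 3 untreated libraries, and without the highest gene of each library the share was 39.1 ppm. The tables were normalised separately, so shares are set side by side as descriptions. Untreated BMDM also carried the smooth muscle and fibroblast genes Acta2 (mean 14.35), Tagln (13.79), Cnn1 (8.57) and Col1a1 (14.20). Their part in the Tpm2 level was not tested.

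**Figure D4:**
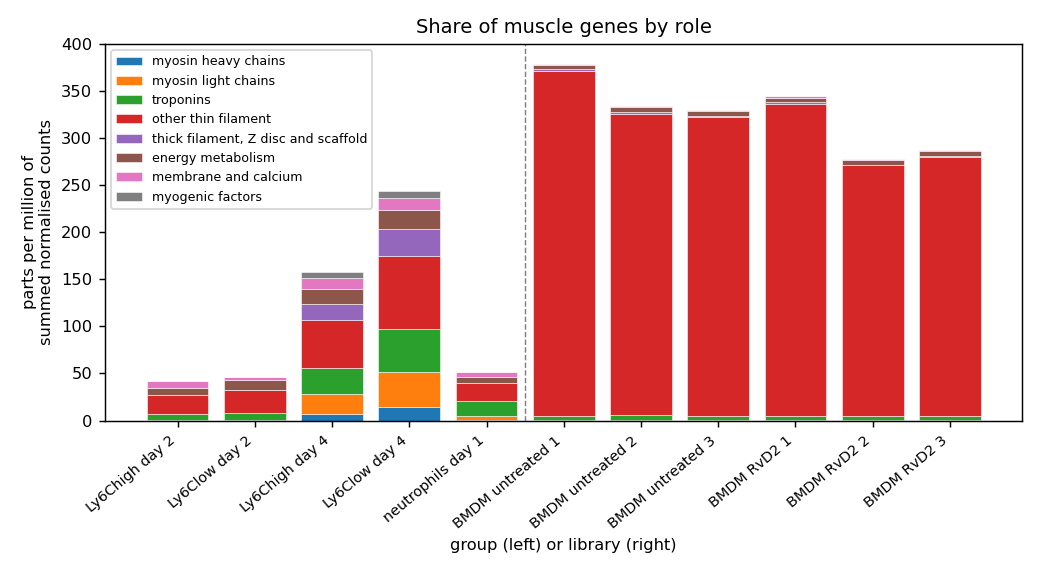
Summed normalised counts of the members by role, in ppm of all genes (y axis), in the 5 sorted groups (left of the dashed line, group means) and the 6 BMDM libraries (right). Thin filament genes make up nearly all of the BMDM bars, mostly Tpm2, while the day 4 bars hold all 8 roles.

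No member passed the threshold for a change with RvD2 in BMDM. Of the 6 members with a mean of 10 or more counts, 0 passed limma's test at an adjusted p of 0.05, while 1.86% of the 15239 genes tested did (0.794% higher and 1.06% lower). Unadjusted, 1 of 6 was under 0.05. That gene was Tpm2, at 12.04, 11.86 and 11.86 in untreated and 11.90, 11.56 and 11.63 in treated libraries. These ranges overlap. The log2 difference in limma was -0.22 ± 0.09 (SE), with a 95% interval from -0.44 to -0.01 and an adjusted p of 0.288.

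Acta1 was at 8.30, 8.35 and 8.28 in untreated and 8.16, 8.33 and 8.20 in treated libraries, a limma difference of -0.08 with adjusted p = 0.696. Eno3 was at 5.89, 6.19 and 6.02 against 5.96, 5.82 and 6.10, a difference of -0.07 (limma adjusted p = 0.872). Tnni2 was at 5.01, 5.07 and 5.09 against 5.03, 4.61 and 5.30, a difference of -0.08 (limma adjusted p = 0.915). In these 3 genes the treated and untreated libraries overlapped.

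The remaining members tested were the lowest. Tnnc1 was at 3.58, 3.87 and 3.50 against 3.27, 3.91 and 2.67, a difference of -0.36 with a 95% interval from -1.18 to 0.45 (limma adjusted p = 0.704). Chrna1 was at 3.09, 3.41 and 3.32 against 3.26, 3.72 and 3.22, a difference of 0.12 with a 95% interval from -0.54 to 0.79 (limma adjusted p = 0.900). Both intervals are wide beside those of Acta1 and Tpm2, so no difference was detectable at this depth and number of libraries. The labels do not say that the libraries came from separate cultures, so these p-values measure the spread between samples.

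**Figure D5:**
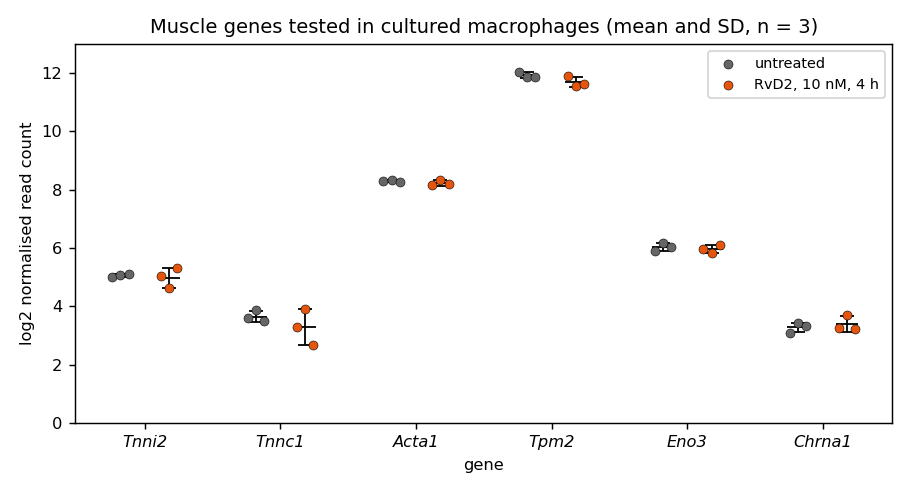
Level (log2 normalised read count, y axis) of the 6 members tested in BMDM (x axis), with 1 point per library, the mean and the SD (n = 3) for untreated and RvD2-treated cells. The points of the 2 groups overlap for every gene.

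Several members share sequence or position with a neighbour that is expressed in these cells, and the library kit as described does not record strand. Tnnc2 shares 592 exon bases (74.0% of its exon length) with Ube2c on the opposite strand. Ube2c, a cell cycle gene, was at 2.01, 5.82, 6.06 and 7.41 in the macrophage groups (Ly6Chigh and Ly6Clow at day 2, then at day 4) and at 8.72 in untreated BMDM, where Tnnc2 was at 0. Atp2a1 shares 763 exon bases (21.9%) with Rabep2, which lay between 7.23 and 8.48 in all sorted groups and at 7.93 in untreated BMDM, where Atp2a1 was at a mean of 0.20. In BMDM both neighbours were expressed and both members were at or near 0. Among the sorted groups both neighbours and both members were highest in Ly6Clow cells at day 4. The part of Ube2c and Rabep2 in the values of Tnnc2 and Atp2a1 was not tested.

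Other members lie close to an expressed gene. The 3′ end of Ryr1 lies 65 bases from that of Map4k1, a kinase gene of blood cells on the opposite strand. Map4k1 was at 9.75 and 8.99 in Ly6Chigh and Ly6Clow cells at day 2, 9.09 and 8.16 at day 4, 7.81 in neutrophils and 4.41 in untreated BMDM, where Ryr1 was at a mean of 1.71. Tnni2 lies 1412 bases from Syt8 on the same strand, at 1.22 and 3.63, then 0.81 and 3.65, and 8.36 in neutrophils, in which Tnni2 was also highest.

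Mylpf lies 149 bases from Sept1 on the opposite strand. Sept1 was at 7.29 in Ly6Chigh cells at day 4 and 8.07 in neutrophils, but at 2.70 in Ly6Clow cells at day 4, where Mylpf was highest. Tnnt3 lies 3969 bases from Lsp1, a leukocyte gene at 11.05 to 13.92 in the sorted groups. The part of these neighbours in the values of Ryr1, Tnni2, Mylpf and Tnnt3 was not tested. Acta1 has close copies in Acta2, at a mean of 14.35 in untreated BMDM, and in Actb, at 14.95 to 16.45 in the sorted groups, so how its reads were divided is uncertain. Over the whole set 14 of 38 genes share exon bases with another annotated gene.

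A sum was also taken without 7 genes: the 5 at 10 or more counts in every untreated BMDM library (Acta1, Eno3, Tnnc1, Tnni2 and Tpm2), and Des and Tnnt1, which had been listed with them. The remaining genes summed to 4.39 ± 0.14 ppm (SD, n = 3) in untreated BMDM, 10.1 ppm in Ly6Chigh and 5.22 ppm in Ly6Clow cells at day 2, and 12.8 ppm in neutrophils. At day 4 they summed to 69.4 ppm in Ly6Chigh and 122 ppm in Ly6Clow cells. The single highest of these genes was Ryr1 at day 2 in both subsets and in neutrophils, and Mylpf at day 4 in both subsets.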

How the data were processed

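Poly-A RNA was sequenced from sorted muscle leukocytes and cultured macrophages, per the labels' protocols with a TruSeq kit that marks no strand as described. The tools TopHat2 2.0.7 and DESeq and the build mm10 appear in the submitters' processing notes, with an annotation not given in the sources used here. Deposited values are log2 normalised read counts, as the authors made them, with values under 1 set to 0. Each of the 5 muscle columns is the authors' mean over a group's 3 or 2 samples, which was read from the steps of the low values, and the 6 BMDM columns are single libraries. No other column (0) was present.

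The 38 members, the gene lists and the rule for named genes were chosen with earlier results of these data known. Named were all members at 50 or more counts in a muscle group, the myogenic factors, the members of isoform pairs, the members tested in BMDM and the 3 highest genes of each of 3 lists of other muscle genes, of which 1 is not reported here. The other lists were non-muscle counterparts of the members, smooth muscle and pericytes, fibroblasts, endothelial cells, Schwann cells, heart muscle and macrophages.

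Muscle groups were compared by the log2 ratio of normalised count + 10, with no test. For BMDM, limma 3.58.1 was run in R 4.3.3 (mean-variance trend, two-sided, Benjamini-Hochberg over all genes with a mean of at least 10 counts, threshold 0.05), which was tested on simulated data. Of the gene identifiers 95.3% (36308 of 38087) are in GENCODE M21 (GRCm38), which gave lengths and neighbours. Promoters are from RefSeq (GRCm38.p6). The protocols describe no molecular identifiers, so reads are not independent molecules and depth covers counting error only. Alternatives were other constants, minimum levels, folds and scalings, other gene filters and models in BMDM, each library left out, and other lengths. The principal transcript length was added after the data were seen.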

Additional observations from a re-analysis of the deposited data

How the results depend on the processing

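The muscle calls depend on the constant, the minimum level and the fold. Another constant cannot reverse a ratio and the rescaling to equal sums was small, so these settings do not test the direction of the calls. Between the subsets at day 4 the members called higher were 3, and became 6 with 1 added, 0 with 32 added and 0 at a fold of 4. The call of Ryr1 at day 2 was lost at a fold of 4 (0 lower). Day 4 against day 2 in Ly6Chigh cells gave 20 with a minimum of 10 counts or none, against 6, and in Ly6Clow cells 27 against 15. Myh3 minus Myh4 was 1.31 and 0.79 in Ly6Chigh and Ly6Clow cells, both with no division by length and with the principal transcript, beside 1.30 and 0.78. Without 7 genes carried by BMDM or listed with them, the sums were 10.1, 5.22, 69.4, 122 and 12.8 ppm (Ly6Chigh and Ly6Clow cells at day 2, the same at day 4, neutrophils) and 4.39 ppm in untreated BMDM. Without the highest gene they were 22.9, 23.1, 121, 188, 32.7 and 39.1 ppm.

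In BMDM, leaving out each library in turn gave 0 members called throughout and 79 to 288 genes in all, against 283. Leaving out 1 library moved Eno3 between -0.14 and 0.0039 and Tnni2 between -0.23 and 0.11, the positive values being those without untreated replicate 2 and RvD2 replicate 2. Without a filter 137 genes were called, and without a trend 49. With the replicate block 1 member was called (Tpm2, limma adjusted p = 0.0183, and 0.0183 to 0.558 over its 12 alternatives) and 1066 genes in all. Same-numbered libraries correlated at 0.290, 0.024 and 0.052 in their deviations from the group means. Untreated replicate 2 correlated better with RvD2 replicate 3 (0.185), while the highest of all pairs was untreated and RvD2 replicate 1. These correlations do not settle whether same-numbered libraries were paired. The causes of these changes were not tested. In muscle no paired analysis was possible because the values are group means, and no library could be left out there for the same reason.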

Other observations

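Some genes with muscle names had another pattern than the members. At day 2, 3 of 40 adult and slow fibre genes outside the set reached 50 counts, and all 3 were called higher in Ly6Clow than in Ly6Chigh macrophages, against 5.90% of all genes. Rapsn, which anchors acetylcholine receptors at the synapse, was at 3.22 and 6.44 at day 2 and 6.21 and 7.57 at day 4, and was listed at 0 in neutrophils. Fabp3, the fatty acid-binding protein of heart and muscle, was at 5.44 and 6.88 at day 2, 5.52 and 6.56 at day 4 and 1.52 in neutrophils. Cox7a1, a cytochrome oxidase subunit named here after its values were seen, was at 4.71 and 6.19 at day 2 and 4.11 and 5.20 at day 4. Untreated BMDM carried all 3, at 3.55 ± 0.46, 4.47 ± 0.17 and 3.32 ± 0.53 (SD, n = 3). Srl, the sarcalumenin of the reticulum and the third of the highest genes of that list, was at 3.68 and 4.41 at day 2 and 5.92 and 6.55 at day 4.

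Some muscle genes outside the set had higher deposited levels in neutrophils at day 1 than in any macrophage group. The 4 described here were chosen after their values were seen, and others included Chrne (3.52), Tmod4 (2.98) and Ampd1 (2.97). These levels are not adjusted for the larger sum of the neutrophil group. Musk, the receptor kinase of the neuromuscular synapse, was at 5.77 in neutrophils and at most 1.76 in macrophages. Myl2, the slow regulatory light chain, was at 5.38 there and at most 0.97 in macrophages. Pygm, the muscle glycogen phosphorylase, was at 7.02 in neutrophils and between 2.83 and 5.20 in macrophages. Mybph, a myosin-binding protein, was at 5.25 in neutrophils, at 0 in both macrophage subsets at day 2, and at 3.42 and 4.54 at day 4.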
